A study of Homo sapiens with 6 samples.

Results

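The genes that encode the proteins of the cytosolic ribosome were examined in RNA-seq of BT549 cells after knockdown of BNC2. They were taken from the count table by symbol, as RPL or RPS followed by a number, with or without the suffix A, X, L or L1, together with RPLP0, RPLP1, RPLP2 and RPSA, and pseudogene symbols were left out. The rule found 85 of the 23346 genes in the table. Of these, 77 encode canonical proteins, 31 of the 40S and 46 of the 60S subunit. A further 7 are paralogs of canonical genes (RPL3L, RPL7L1, RPL10L, RPL22L1, RPL26L1, RPL39L and RPS27L), and 1 is an extra copy of a canonical gene in the genome assembly.

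BT549 is a breast cancer cell line of mesenchymal type, labelled as wild type, and BNC2 encodes basonuclin-2, a zinc finger protein of the nucleus. Cells received 20 nM BNC2 siRNA, an equal mix of 3 siRNAs against BNC2, or 20 nM negative control (NC) siRNA, and poly(A) RNA was sequenced 6 d after transfection. The labels and the study's methods name different lipid reagents for the transfection. Each group had 3 libraries, which the study's methods call biological replicates, and all came from this cell line. Untransfected cells were not analysed here, so every value compares cells that had all been through transfection.

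The cytosolic ribosome joins a small 40S subunit, which reads the mRNA, to a large 60S subunit, which forms the peptide bond. Most of its proteins are present in a single copy per ribosome, and the genes are expressed at high level in nearly every cell. Their mRNAs begin with a C followed by a run of pyrimidines, the 5′ terminal oligopyrimidine (TOP) motif, through which LARP1 and the mTORC1 kinase control their translation and stability together.

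The starts of these genes are shown because the TOP motif is what the mRNAs are known to share, and they are given for the canonical genes that rose or fell most. Each window runs from 15 bases before to 15 bases from the annotated start in RefSeq (GRCh38.p14). A single annotated start was taken per gene. Other starts were not searched, and where the mRNAs begin in these cells was not measured. Capitals mark a C followed by at least 4 further pyrimidines, starting within 10 bases of the annotated start. The first 8 lines are genes that rose after BNC2 knockdown and the last 5 are genes that fell. The runs of RPL39 (22 bases) and RPS15 (7 bases) go on past their windows.
RPLP0 (chr12:120201097-120201126, minus strand): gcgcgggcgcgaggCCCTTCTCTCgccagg
RPL13A (chr19:49487593-49487622, plus strand): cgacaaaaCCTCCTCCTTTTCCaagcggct
RPL28 (chr19:55385917-55385946, plus strand): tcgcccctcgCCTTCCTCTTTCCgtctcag
RPL11 (chr1:23691764-23691793, plus strand): cgcctcctggcccataaggCCCTCggccgg
RPS14 (chr5:150449725-150449754, minus strand): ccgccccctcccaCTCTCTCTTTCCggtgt
RPL39 (chrX:119791616-119791645, minus strand): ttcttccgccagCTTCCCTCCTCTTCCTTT
RPL3 (chr22:39319609-39319638, minus strand): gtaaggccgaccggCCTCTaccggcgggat
RPL6 (chr12:112411428-112411457, minus strand): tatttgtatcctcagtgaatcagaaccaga
RPS24 (chr10:78033848-78033877, plus strand): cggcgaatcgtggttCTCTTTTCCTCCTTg
RPL14 (chr3:40457324-40457353, plus strand): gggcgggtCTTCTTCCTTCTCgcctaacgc
RPS15 (chr19:1438381-1438410, plus strand): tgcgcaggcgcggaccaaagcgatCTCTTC
RPL15 (chr3:23916530-23916559, plus strand): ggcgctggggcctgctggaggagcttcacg
RPL17 (chr18:49492451-49492480, minus strand): cctctttccctaagcagcctgaggtgagtg

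Such a run lay at the annotated start of 54 of the 62 canonical genes with a promoter entry (87.1%), against 32.3% of all 27305 promoters. It was found in genes of either direction. For comparison, 36.6% of all genes tested were called up and 36.2% down after BNC2 knockdown, and 45 of the 75 canonical genes tested (60%) rose and 5 (6.67%) fell. Among those with a run, 31 of 53 genes tested rose and 3 fell (median log2 fold change 0.23). Of the 8 genes tested without such a run, 4 rose (RPL6, RPL13, RPS4X and RPS29) and 2 fell (RPL15 and RPL17), and their median was 0.18. Only a single annotated start per gene was searched, so these genes are not shown to lack the TOP motif. In RPL17 a run of pyrimidines opens the window printed above, too far from the annotated start to be marked. In the 300 bases from 250 before to 50 after the start, the ETS motif CCGGAAG was found on either strand in 33.9% of the canonical genes and 10.7% of all promoters, and the YY1 motif AAGATGG in 12.9% and 6.06%. The SP1 motif GGGCGG was found in 54.8% and 44.6%, and the TATA box TATAAA in 8.06% and 12%. Of the 21 genes tested with the ETS motif, 12 rose (57.1%) and 0 fell, and of the 40 without it, 23 rose (57.5%) and 5 fell, so that the share of rises was nearly that of all canonical genes in both. These are matches of letters in windows of the reference and not measured binding.

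The libraries held 16093978 to 18246254 counts on genes, so that 3 counts correspond to 0.164 to 0.186 CPM (counts scaled by library size). BNC2 itself was at 65.6, 51.5 and 58.6 CPM with NC siRNA and at 35.5, 36.6 and 41.6 CPM with BNC2 siRNA, without overlap between the groups (log2 fold change -0.63 ± 0.09, adjusted p = 8.2e-06, where ± after a fold change is its standard error). The mesenchymal markers VIM, FN1, CDH2, ZEB1 and SPARC were present in every library, from 111 CPM for ZEB1 to 3417 CPM for VIM. For these markers and the 3 counts above, CPM are scaled by total gene counts only. The other CPM also include TMM normalisation. CDH2 was at 159, 160 and 149 CPM with NC siRNA and at 383, 374 and 385 CPM with BNC2 siRNA. SPARC was lower with BNC2 siRNA, at 2453, 2408 and 2361 CPM against 1632, 1608 and 1537 CPM. VIM, FN1 and ZEB1 were higher in each BNC2 siRNA library than in any NC library. The epithelial markers CDH1, EPCAM, ESRP1 and CLDN4 had at most 5 counts in a library, and the leukocyte and endothelial markers PTPRC, CD3E, PECAM1 and CDH5 at most 7. Of all 12186 genes tested with edgeR's quasi-likelihood test, 36.6% were called up and 36.2% down at an adjusted p of at most 0.05.

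After BNC2 knockdown, most ribosomal protein genes were modestly higher. Of the 85 genes, 80 had more than 1 CPM in at least 3 libraries and were tested. Of these, 47 rose (58.8%), 8 fell (10.0%) and 25 were not called, where 36.6% of all genes rose and 36.2% fell. The median log2 fold change was 0.24, and single genes ranged from -0.60 for RPL39L to 1.37 for RPL26L1, while the median of all genes was 0.00. Ribosomal protein genes are abundant, and among the 2350 genes with a mean of at least 100 CPM, 45.7% rose and 31.8% fell, with a median of 0.09. Of the 65 ribosomal protein genes above that level, 40 rose (61.5%) and 4 fell (6.15%), with a median of 0.24. The values are shares of each library's counts, and in cultures sequenced as a whole a change per cell and a change in the mix of cells cannot be told apart.

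**Figure D1:**
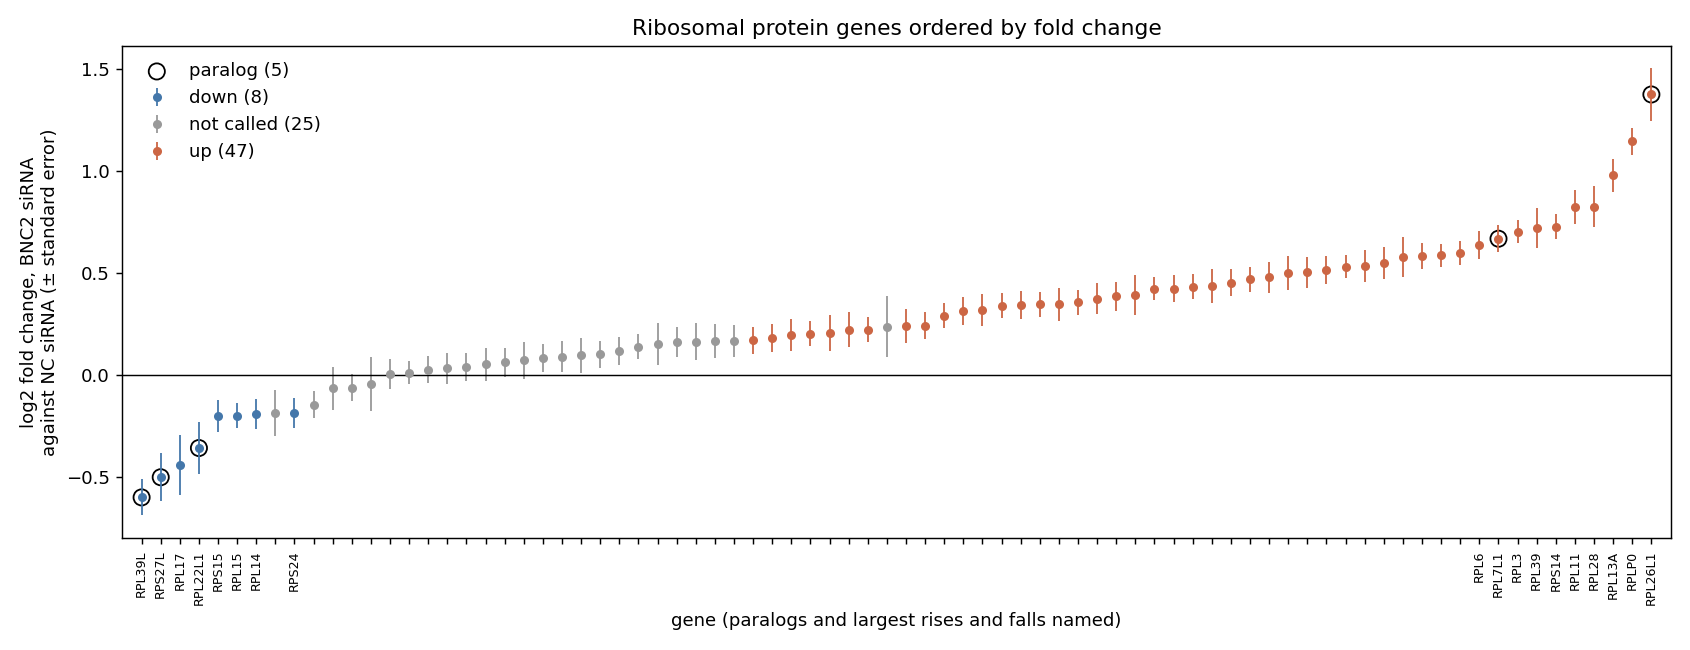
The 80 ribosomal protein genes tested are ordered by log2 fold change of BNC2 siRNA against NC siRNA on the vertical axis, with the standard error of edgeR's fit as bars and n = 3 libraries per group. The 47 genes called up are red, the 8 called down are blue and the 25 not called are grey. The 5 paralogs, circled, hold both ends of the order, and names are given for the paralogs and the largest rises and falls.

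The rise was of the same order as the differences between libraries of a group. Each gene was expressed as its distance, on the log2 scale, from its mean over the 6 libraries. The median of this distance over the 80 genes was -0.26, -0.09 and -0.02 in NC replicates 1, 2 and 3, and 0.23, 0.12 and 0.03 in BNC2 siRNA replicates 1, 2 and 3. The groups therefore did not overlap in this median, but NC replicate 3 and BNC2 siRNA replicate 3 lay close together. NC replicate 1 was the lowest NC library for 65 of the 80 genes, and BNC2 siRNA replicate 1 was the highest library of its group for 65. For all genes tested, the same medians ran only from -0.0021 in NC replicate 1 to 0.0102 in BNC2 siRNA replicate 1. Among genes with a mean of at least 100 CPM, the median SD within a group on the log2 scale was 0.11 (NC) and 0.11 (BNC2 siRNA) over 65 ribosomal protein genes, and 0.07 and 0.06 over the 2285 other genes, which were not matched further in level. The levels of the 2 groups were fully apart for 47 of the 80 genes (58.8%), 43 higher and 4 lower, where the groups did not overlap for 74.9% of all genes.

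**Figure D2:**
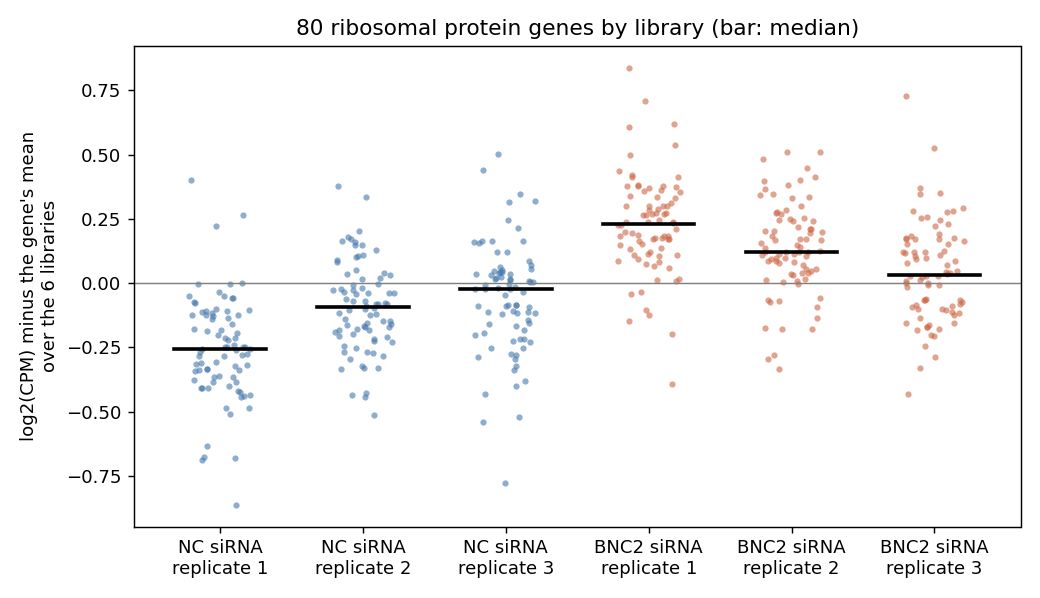
Each point is a ribosomal protein gene in a library, placed by its log2 CPM minus the mean of that gene over the 6 libraries, and the black bar is the median of the 80 genes. The medians run from -0.26 in NC siRNA replicate 1 to 0.23 in BNC2 siRNA replicate 1, and those of the replicates 3 of both groups, -0.02 and 0.03, lie next to each other.

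As a share of all gene counts, the 85 genes took 3.07%, 3.47% and 3.51% with NC siRNA and 4.27%, 3.98% and 3.78% with BNC2 siRNA. The share was higher in each of the 3 BNC2 siRNA libraries than in any NC library, by 0.66 percentage points on average, and the exact two-sided permutation test gave p = 0.1, the smallest value that 3 libraries against 3 can give. Without NC replicate 1 the difference was 0.52 points, and without BNC2 siRNA replicate 1 it was 0.53 points. Reads that map to several places, which STAR leaves out of gene counts, made up 8.68%, 8.75% and 9.31% of the reads with NC siRNA and 9.71%, 9.59% and 9.23% with BNC2 siRNA (exact permutation test, p = 0.2). These groups overlapped, and the part of such reads in the fold changes was not tested. Leaving out NC replicate 1 gave 42 rises and 10 falls with a median of 0.17, and leaving out BNC2 siRNA replicate 1 gave 41 rises and 8 falls with a median of 0.22. The number of falls was 4 when replicate 2 of either group was left out, and 5 when it was replicate 3 of the BNC2 siRNA group. The rises numbered 41 to 53 over these 6 ways of leaving out a library.

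Of the 30 genes of the 40S subunit that were tested, 19 rose (63.3%), 2 fell (6.67%) and 9 were not called, where 36.6% of all genes rose and 36.2% fell. The median log2 fold change was 0.27. RPS14, a protein of the platform of the subunit whose gene is lost in a form of myelodysplastic syndrome, rose most. Its level was 191, 207 and 185 CPM with NC siRNA and 333, 329 and 304 CPM with BNC2 siRNA. The groups were far apart compared with their spread (log2 fold change 0.73 ± 0.06, adjusted p = 1.4e-08). RPS18, which lies at the head of the subunit, was at 337, 341 and 329 CPM and rose to 525, 519 and 467 CPM (log2 fold change 0.58 ± 0.06, adjusted p = 1.2e-07). RPSA, also known as the laminin receptor, rose from 237, 257 and 267 CPM to 401, 390 and 349 CPM (log2 fold change 0.58 ± 0.06, adjusted p = 4.3e-07). RPS6, the substrate of the S6 kinases downstream of mTORC1, was at 824, 971 and 1019 CPM with NC siRNA and at 1414, 1303 and 1198 CPM with BNC2 siRNA. Its groups did not overlap either, although the highest NC library came close to the lowest BNC2 siRNA library (log2 fold change 0.48 ± 0.08, adjusted p = 2.9e-05). RPS3, which sits where the mRNA enters, rose from 794, 866 and 894 CPM to 1204, 1167 and 1074 CPM (log2 fold change 0.43, adjusted p = 8.4e-06).

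The 40S genes that fell were RPS15 and RPS24, which serve the maturation of the subunit. RPS15, needed for export of the 40S precursor from the nucleus, was at 251, 289.9 and 303 CPM with NC siRNA and at 275, 231 and 227 CPM with BNC2 siRNA. NC replicate 1 and BNC2 siRNA replicate 1 were in reverse order, so that the groups overlapped (log2 fold change -0.20 ± 0.08, adjusted p = 0.029). The call was lost without NC replicate 2 (-0.20), NC replicate 3 (-0.17), either of the BNC2 siRNA replicates 2 (-0.16) and 3 (-0.16), and with a replicate block. RPS24, mutated in Diamond-Blackfan anaemia, was at 581, 682 and 741 CPM with NC siRNA and at 581, 592 and 586 CPM with BNC2 siRNA. The BNC2 siRNA libraries were nearly equal and NC replicate 1 matched them (log2 fold change -0.19 ± 0.07, adjusted p = 0.026). This call held only in the alternatives that kept all libraries and without NC replicate 1, and the log2 fold change was -0.13 without NC replicate 3, -0.18 without BNC2 siRNA replicate 1 and -0.19 without NC replicate 2 or either of the BNC2 siRNA replicates 2 and 3. The 40S genes not called were RPS3A, RPS7, RPS10, RPS15A, RPS19, RPS20, RPS21, RPS26 and RPS27A. RPS19, the gene most often mutated in Diamond-Blackfan anaemia, was among them, at 355, 428 and 423 CPM with NC siRNA and at 511, 435 and 404 CPM with BNC2 siRNA.

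Of the 45 genes of the 60S subunit that were tested, 26 rose (57.8%), 3 fell (6.67%) and 16 were not called, beside 36.6% and 36.2% of all genes, and the median was 0.23. The largest rise of a canonical gene was that of RPLP0 (chr12:120634502-120638914 in GRCh37, minus strand), the scaffold of the stalk that binds the elongation factors. It was at 408, 458 and 456 CPM with NC siRNA and at 1068, 912 and 939 CPM with BNC2 siRNA, a 2.21-fold increase. Every BNC2 siRNA library was far above every NC library (log2 fold change 1.14 ± 0.07, adjusted p = 2.2e-10). The other two proteins of the stalk, which bind RPLP0 as dimers, did not move to the same extent. RPLP2 rose from 170.2, 198 and 215 CPM to 275, 234 and 233 CPM, without overlap (log2 fold change 0.35 ± 0.08, adjusted p = 0.0011). RPLP1 was at 434, 488 and 425 CPM and at 479, 469 and 419.6 CPM, with overlapping groups, and was not called (log2 fold change 0.02 ± 0.07, adjusted p = 0.76). The difference between the changes of these genes was not tested.

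**Figure D3:**
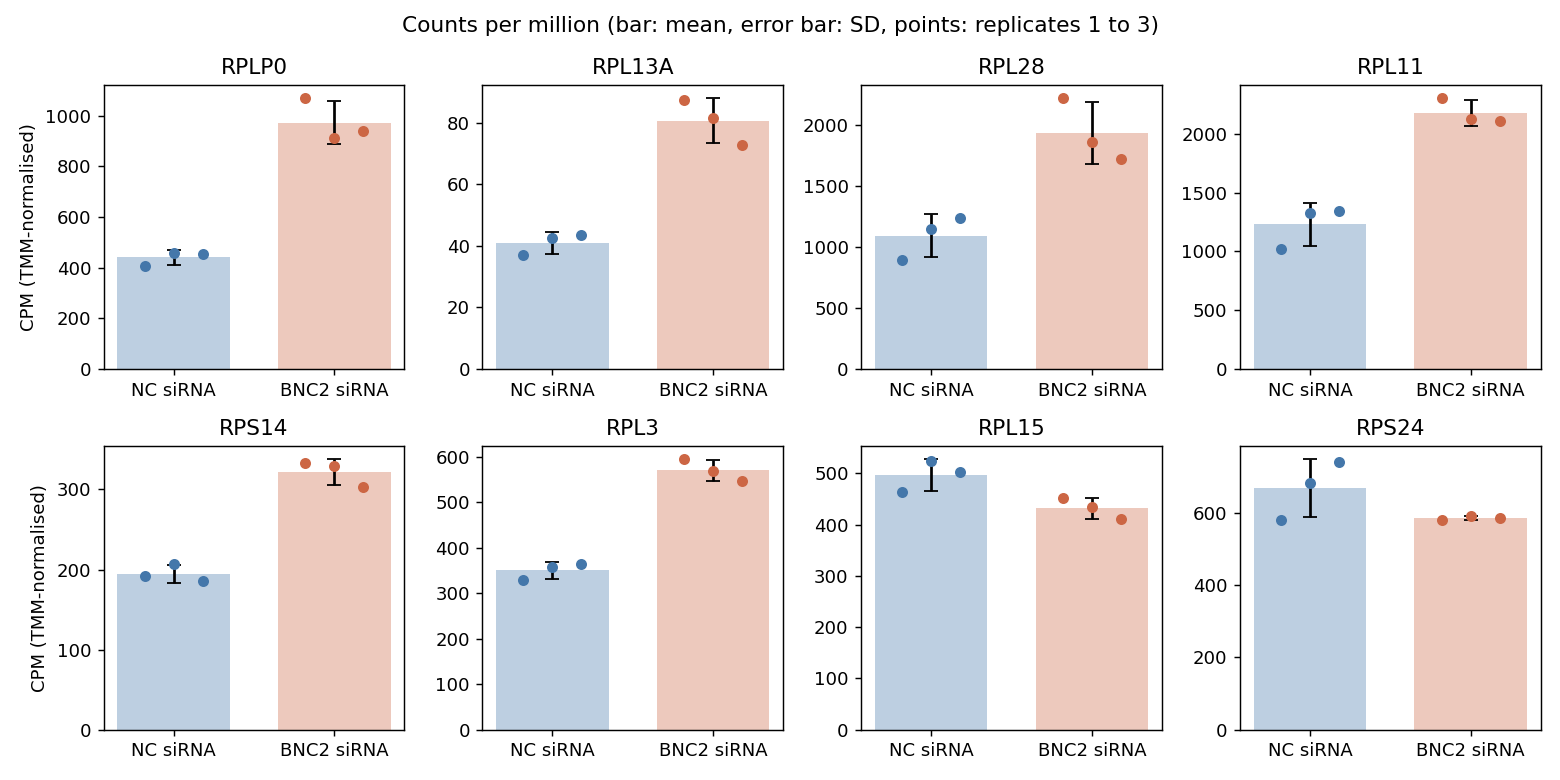
The vertical axes give TMM-normalised CPM, the points are the 3 libraries of each group, the bars their mean and the error bars their SD. In RPLP0, RPL13A, RPL28, RPL11, RPS14 and RPL3 the BNC2 siRNA libraries lie above the NC siRNA libraries without overlap, while in RPL15 they lie slightly below and in RPS24 NC replicate 1 is level with them.

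RPL13A (chr19:49990865-49995565 in GRCh37), which is released from the ribosome in the interferon-gamma response to silence certain mRNAs, rose from 36.9, 42.5 and 43.3 CPM to 87.2, 81.6 and 72.8 CPM. This was the next largest increase (log2 fold change 0.98 ± 0.08, adjusted p = 1.3e-08), at a level lower than that of most ribosomal protein genes. RPL28 (chr19:55897300-55903453), a 60S protein with no counterpart in budding yeast, was at 895, 1147 and 1233 CPM with NC siRNA and at 2216, 1858 and 1723 CPM with BNC2 siRNA. Its replicates differed widely within both groups, which still did not overlap (log2 fold change 0.82 ± 0.10, adjusted p = 1.5e-06). RPL11 (chr1:24018296-24023325), which binds the 5S rRNA and can inhibit MDM2, rose from 1019, 1328 and 1348 CPM to 2301, 2126 and 2107 CPM (log2 fold change 0.82 ± 0.08, adjusted p = 1.9e-07). RPL5, its partner on the 5S rRNA, was at 635, 714 and 737 CPM and rose to 852, 849 and 761 CPM (log2 fold change 0.24 ± 0.07, adjusted p = 0.0036). In both genes NC replicate 1 was the lowest library.

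RPL39, a small protein that lines the exit tunnel for the nascent chain, was at 31.0, 24.6 and 23.0 CPM with NC siRNA and at 43.4, 45.6 and 40.5 CPM with BNC2 siRNA. NC replicate 1 was the highest NC library here, against the order seen in most other genes (log2 fold change 0.72 ± 0.10, adjusted p = 5.3e-06). RPL3, which reaches towards the site of peptide bond formation, rose from 329, 357 and 364 CPM to 594, 568 and 546 CPM (log2 fold change 0.70 ± 0.06, adjusted p = 1.3e-08). RPL6 was at 204, 245 and 239.7 CPM and rose to 372, 351 and 347 CPM (log2 fold change 0.64 ± 0.07, adjusted p = 2.7e-07). These 8 largest rises of canonical genes, RPS14 included, were called under each of the 15 alternative settings.

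The 60S genes that fell were RPL17, RPL15 and RPL14. RPL15, mutated in some families with Diamond-Blackfan anaemia, was at 464, 524 and 503 CPM with NC siRNA and at 452, 434 and 411 CPM with BNC2 siRNA. Its groups were separate by a narrow margin (log2 fold change -0.20 ± 0.06, adjusted p = 0.0066), and the call held under each alternative. RPL14 was at 366, 421 and 417 CPM with NC siRNA and at 389.7, 331 and 333 CPM with BNC2 siRNA. Both replicates 1 lay between the others and the groups overlapped (log2 fold change -0.19 ± 0.07, adjusted p = 0.023). RPL14 was not called without NC replicate 2 (-0.18), either of the BNC2 siRNA replicates 2 (-0.15) and 3 (-0.16), or with a replicate block. RPL17, which sits at the exit of the tunnel, was at 7.66, 6.22 and 6.50 CPM with NC siRNA and at 4.42, 5.53 and 5.03 CPM with BNC2 siRNA. It was very low in all libraries, and its call (log2 fold change -0.44 ± 0.15, adjusted p = 0.013) was lost without NC replicate 1 (-0.37) or BNC2 siRNA replicate 1 (-0.36).

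Between these ends lay many genes without a call. The 25 genes not called ranged from -0.19 for RPL35 to 0.23 for RPL36A on the log2 scale. Both ends moved with the processing. Over 16 settings, the main one included, RPL35 ranged from -0.35 to -0.08 and was called down in 4. RPL36A ranged from 0.08 to 0.32 and was called in 0. The gene called with the least margin was RPL24, a protein that joins the 60S subunit late, which was at 394, 494 and 538 CPM with NC siRNA and at 593, 527 and 522 CPM with BNC2 siRNA (log2 fold change 0.20, adjusted p = 0.046). Its groups overlapped, and the log2 fold change was 0.07 without NC replicate 1, 0.15 without BNC2 siRNA replicate 1 and 0.21 to 0.24 without NC replicate 2 or either of the BNC2 siRNA replicates 2 and 3, none of which was called. It was also not called with a replicate block (0.21), DESeq2's size factors (0.20) or library totals only (0.13). Just outside the threshold was RPL23, at 322, 375 and 391 CPM and at 431, 406 and 378 CPM (log2 fold change 0.16, adjusted p = 0.054), which was called without NC replicate 3 (0.20) or BNC2 siRNA replicate 3 (0.21), with filterByExpr (0.17) and without a filter on low counts (0.19).

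The paralogs held both ends of the range. All 5 that were tested were called, 2 up and 3 down, where 36.6% of all genes were called up and 36.2% down. RPL26L1 (chr5:172386427-172396774), nearly identical in protein to RPL26, was at 6.53, 8.79 and 6.92 CPM with NC siRNA and at 21.2, 16.9 and 19.7 CPM with BNC2 siRNA. This 2.59-fold increase was the largest of the 80 genes tested, at a low level (log2 fold change 1.37 ± 0.13, adjusted p = 5.9e-08). RPL7L1, a nucleolar relative of RPL7, rose from 51.4, 49.5 and 47.9 CPM to 73.6, 83.0 and 79.6 CPM (log2 fold change 0.67 ± 0.07, adjusted p = 1.5e-07).

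RPL39L (chr3:186838736-186857284), a paralog of RPL39 best known from testis, fell from 36.2, 34.7 and 40.9 CPM to 26.3, 24.8 and 22.3 CPM (log2 fold change -0.60 ± 0.09, adjusted p = 1.2e-05). The groups were clearly apart. RPS27L, a target of p53, was at 35.3, 48.1 and 53.9 CPM with NC siRNA and at 34.4, 30.2 and 32.2 CPM with BNC2 siRNA, and NC replicate 1 was only just above the highest BNC2 siRNA library (log2 fold change -0.50 ± 0.12, adjusted p = 0.0010). RPL22L1, whose mRNA is repressed by RPL22, was at 18.9, 27.9 and 26.8 CPM with NC siRNA and at 20.8, 17.5 and 18.97 CPM with BNC2 siRNA. NC replicate 1 lay among the BNC2 siRNA libraries (log2 fold change -0.36 ± 0.13, adjusted p = 0.016), and the call was lost without NC replicate 2 (-0.27) or BNC2 siRNA replicate 2 (-0.29).

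Each paralog was next set against its canonical partner within the same library, so that the scaling of the libraries drops out. RPL39L counts were 117%, 141% and 178% of those of RPL39 with NC siRNA and 60.5%, 54.5% and 55.2% with BNC2 siRNA. In NC cells the paralog thus had more counts than RPL39 in each library, and in BNC2 siRNA cells fewer. RPL22L1 was at 19.7%, 29.7% and 30.1% of RPL22 with NC siRNA and at 16.3%, 12.7% and 16.4% with BNC2 siRNA. RPS27L fell from 21.1%, 26.5% and 25.3% of RPS27 to 13.4%, 12.3% and 14.3%. In these pairs the partner itself rose, by 0.72 for RPL39, 0.45 for RPL22 and 0.37 for RPS27 on the log2 scale. RPL26L1 went the other way, from 0.628%, 0.661% and 0.509% of RPL26 to 1.50%, 1.22% and 1.42%. RPL7L1 was at 11.4%, 9.85% and 9.30% of RPL7 with NC siRNA and at 12.6%, 14.6% and 14.8% with BNC2 siRNA. The groups did not overlap in any of the 5 pairs, and the exact two-sided permutation test gave p = 0.1 for each, the smallest it can give with 3 libraries against 3, and 0.1 after adjustment over the 5 pairs. Of the partners, RPL39 and RPS27 have 100% of their coding windows repeated elsewhere in the genome, RPL7 has 96.0%, RPL22 has 78.1% and RPL26 has 42.7%. Of the paralogs, RPL7L1 has 42.4% and RPL26L1 has 29.6%, while RPL22L1, RPL39L and RPS27L have 0%. The percentages of paralog to partner therefore compare counted reads and not amounts of mRNA.

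**Figure D4:**
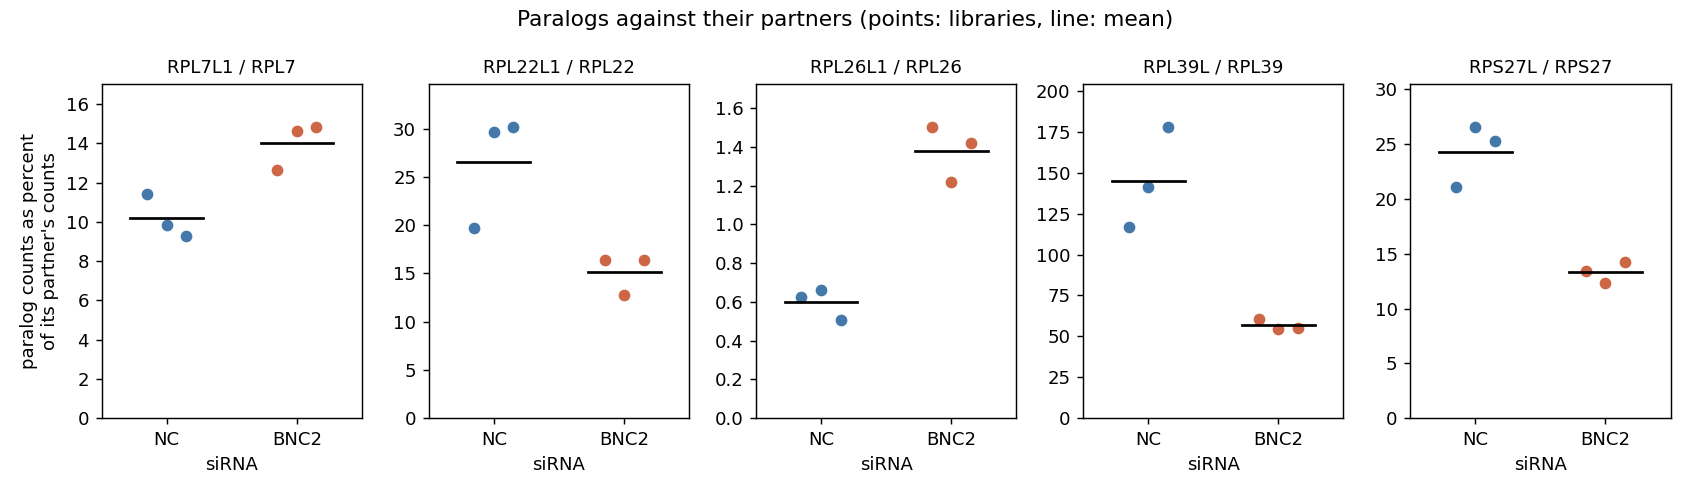
The vertical axes give the counts of a paralog as a percentage of the counts of its canonical partner in the same library, with a point for each of the 3 libraries per group and a line at their mean. RPL22L1, RPL39L and RPS27L are lower relative to their partners with BNC2 siRNA, and RPL7L1 and RPL26L1 are higher, without overlap in any pair.

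Many ribosomal protein genes have processed pseudogenes, and reads that fit a pseudogene as well as the gene are not counted. As a measure of this, the 75-base windows of each coding sequence were searched for exact copies elsewhere in GRCh37. Of the 75 canonical genes tested, 26 had copies of under 10% of their windows, and among these 16 rose and 0 fell (median log2 fold change 0.30). Of the 24 genes with 10% to 50% of windows repeated, 14 rose and 3 fell (median 0.19). Of the 25 genes with at least 50%, 15 rose and 2 fell (median 0.23). Over all genes, 36.6% rose and 36.2% fell. Across the 75 genes, Spearman's rho of the log2 fold change was -0.04 with the repeated share, 0.17 with mean CPM, 0.28 with coding length and 0.20 with the GC content of the coding sequence. Over all 11533 genes tested with a coding sequence it was 0.18 with coding length and -0.11 with GC content. These describe genes measured in the same libraries. Among the largest rises the repeated share was 49.0% for RPLP0, 59.4% for RPL13A, 2.08% for RPL28, 0% for RPL11, 6.07% for RPS14, 100% for RPL39, 34.4% for RPL3 and 77.0% for RPL6.

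Ribosomal protein genes are also short. Among all genes with a coding sequence under 500 bases, 23.1% rose and the median log2 fold change was -0.19. The 45 canonical ribosomal protein genes of that length had a median of 0.17, with 22 rises and 2 falls. From 500 to 1000 bases, the median was -0.11 over all genes, of which 28.3% rose, and 0.40 over 28 canonical ribosomal protein genes, of which 21 rose and 3 fell. Paralogs are not in these counts. The counts over all genes include the ribosomal protein genes, and the difference was not tested.

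Although most of the proteins are present in a single copy per ribosome, counted reads per kilobase of coding sequence differed widely between the genes. The counts also include reads on the untranslated parts of the mRNAs, whose length was not taken into account. Over both groups together the mean level per coding kilobase was highest for RPL28, followed by RPL8. It was 2656 and 2882 CPM per kilobase in these genes with NC siRNA, and 4702 and 3862 CPM per kilobase with BNC2 siRNA. RPL8, which lies close to the site of peptide bond formation, had 2151, 2321 and 2195 CPM with NC siRNA and 3089, 2951 and 2892 CPM with BNC2 siRNA (log2 fold change 0.42 ± 0.06, adjusted p = 3.5e-06). The groups did not overlap. Lowest were RPL17 (12.3 CPM per kilobase with NC siRNA and 9.04 with BNC2 siRNA), RPL36A (22.5 and 26.4) and RPL26L1 (17.1 and 44.3). In RPL17 and RPL36A, 84.3% and 100% of the windows are repeated. Both also overlap annotated readthrough genes, and reads shared by overlapping genes are not counted. Whether repeats or overlaps account for these low levels was not tested.

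The remaining 5 genes were not tested. RPL21 and RPL10L were listed at 0 counts in each library. All of the windows of RPL21 are repeated, so that this zero does not show that the mRNA was absent. RPL10L, a paralog of RPL10 known from testis, has 0% of its windows repeated. RPL3L, the paralog of RPL3 in heart and skeletal muscle, had 0, 2 and 0 counts with NC siRNA and 1, 0 and 1 with BNC2 siRNA, which is at or below 3 counts in all libraries.

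The symbol rule leaves out some proteins of the ribosome with other names. Of 4 such genes, 1 rose, 1 fell and 2 were not called (median log2 fold change -0.04), where 36.6% of all genes rose and 36.2% fell. Leaving out 1 library moved this median between -0.1706 and 0.0025. GNB2L1, now RACK1, a scaffold on the head of the 40S subunit, rose from 1271 ± 55.0 to 1692 ± 106 CPM (mean ± SD, n = 3, log2 fold change 0.41, adjusted p = 9.9e-06). The fall in this list was not called without NC replicate 3 or BNC2 siRNA replicate 3, or by DESeq2.

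Other genes of translation were examined as lists, to be read against the 36.6% of all genes that rose and the 36.2% that fell. Of 18 elongation factors and further genes with TOP mRNAs, 14 rose, 3 fell and NPM1 was not called, and the median log2 fold change was 0.55. EIF3F, a subunit of initiation factor eIF3, rose most, from 40.9 ± 4.72 to 95.6 ± 4.44 CPM (log2 fold change 1.23 ± 0.08, adjusted p = 6.0e-10). EEF2, which moves the ribosome along the mRNA and binds the stalk, followed with a rise from 1480 ± 41.1 to 3380 ± 53.4 CPM (log2 fold change 1.19 ± 0.05, adjusted p = 7.5e-12). EEF1A1, which delivers aminoacyl-tRNA, rose from 2472 ± 86.8 to 3726 ± 23.6 CPM (log2 fold change 0.59, adjusted p = 4.1e-08). The genes that fell were BTF3 (log2 fold change -0.56, adjusted p = 2.7e-07), a part of the nascent polypeptide-associated complex, EIF3H (-0.24) and EEF1B2 (-0.24). EEF2, EEF1A1, EIF3H and EEF1B2 were chosen after their values had been seen.

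A further list held initiation factors other than the 6 counted above with the TOP mRNAs (EIF3E, EIF3F, EIF3H, EIF3K, EIF3L and EIF4B), of which 5 rose and EIF3H fell. Of its 27 genes tested, 9 were up, 8 down and 10 not called (median 0.01), where 36.6% of all genes rose and 36.2% fell. Its median lay between -0.0243 and 0.057 when 1 library was left out. EIF2B2, a subunit of the exchange factor for eIF2, rose most within this list (log2 fold change 0.73, adjusted p = 5.4e-08), and EIF3J fell most in it (-0.88, adjusted p = 2.2e-09). EIF3C and EIF4A1 were listed at 0 counts in each library and not tested, and since cells in general use EIF4A1, this zero does not show that the mRNA was absent. Of 78 factors of ribosome biogenesis, 25 rose, 33 fell and 20 were not called (median -0.05), also near the shares of all genes. NOLC1, a nucleolar phosphoprotein, rose from 142 ± 2.91 to 374 ± 8.86 CPM (log2 fold change 1.40, adjusted p = 1.2e-12), and EBNA1BP2, a factor of 60S assembly, fell from 642 ± 40.4 to 313 ± 15.8 CPM (log2 fold change -1.04, adjusted p = 2.1e-10). Of 15 genes for RNA polymerase I and its factors, which make the precursor of most rRNA, 4 rose and 8 fell (median -0.27). With 1 library left out, 2 to 4 rose and the median was -0.30 to -0.17, and with a replicate block 2 rose. POLR1A, the gene of the largest subunit of RNA polymerase I, rose (log2 fold change 0.83, adjusted p = 1.8e-07). TWISTNB, the gene of another subunit, fell (-1.51, adjusted p = 1.7e-11).

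Among 15 dedicated chaperones and importins of ribosomal proteins, 5 rose and 5 fell (median 0.09). The importin KPNB1 rose most (log2 fold change 0.79, adjusted p = 1.9e-09) and BCCIP, a chaperone of RPL23, fell most (-1.01, adjusted p = 2.1e-09). Of 18 genes of mTORC1, its regulators and substrates, LARP1 and its relatives, and other regulators of ribosomal protein genes such as CNBP, 7 rose and 8 fell (median 0.00), and in both of these lists the shares lie near the 36.6% and 36.2% of all genes. MTOR itself rose from 122 ± 7.95 to 198 ± 5.76 CPM (log2 fold change 0.70, adjusted p = 2.1e-08), and DEPTOR, an inhibitor of mTOR, fell from 6.27 ± 0.321 to 0.901 ± 0.481 CPM (log2 fold change -2.78 ± 0.25, adjusted p = 3.0e-08). RHEB, which activates mTORC1, fell (log2 fold change -1.15, adjusted p = 2.7e-11), as did the S6 kinase gene RPS6KB1 (-0.75, adjusted p = 3.4e-07), while LARP1 rose (0.61, adjusted p = 7.2e-08). These 3 genes were chosen after their values had been seen. These are levels of mRNA, and neither translation nor kinase activity was measured in these libraries.

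**Figure D5:**
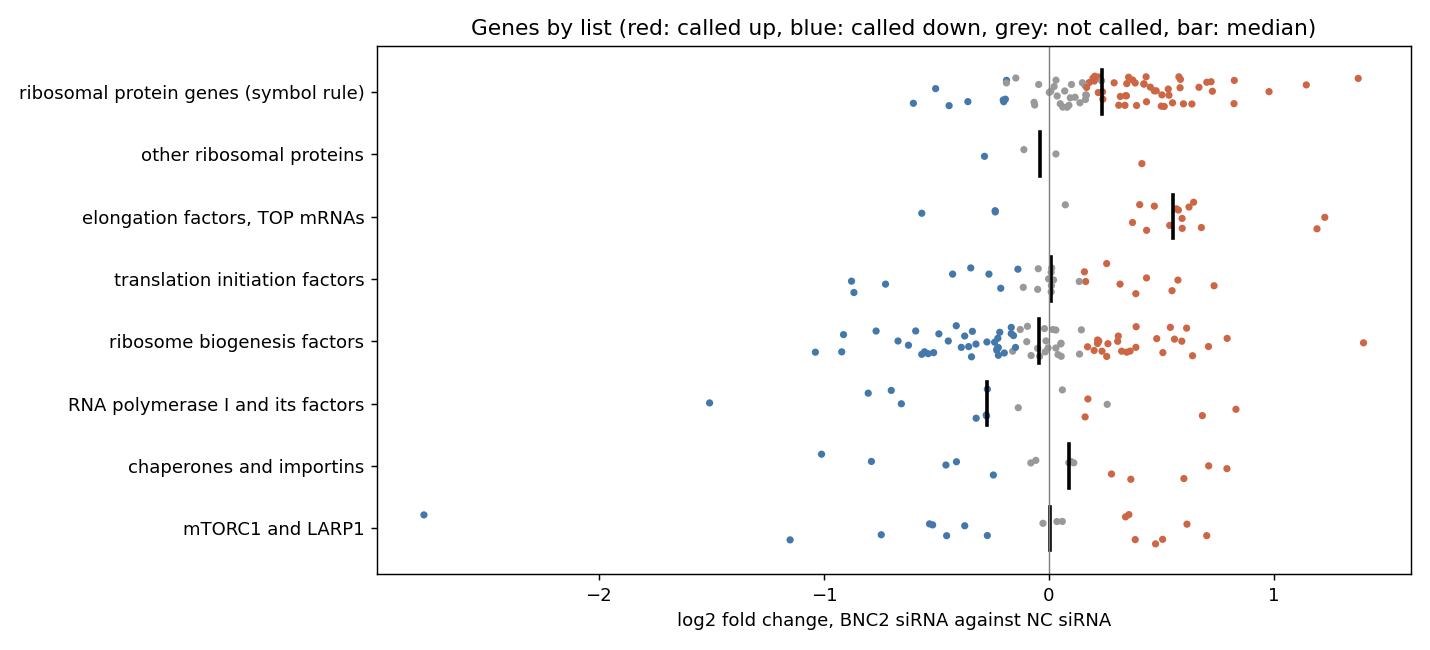
Each point is a gene tested, placed by its log2 fold change of BNC2 siRNA against NC siRNA, in rows for the ribosomal protein genes and 7 lists of related genes, and the black bars are medians. The ribosomal protein genes (median 0.24) and the elongation factors and TOP mRNAs (median 0.55) lie mostly right of 0, while ribosome biogenesis factors (-0.05) and RNA polymerase I (-0.27) lie on both sides.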

How the data were processed

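Poly(A) RNA of 6 libraries of BT549 cells was sequenced by the authors as single-end reads of 75 cycles, aligned with STAR (version 2.6.1d in the submitters' processing notes) to hg19 and counted with an iGenomes UCSC annotation. The authors deposited these whole-number counts per gene without normalisation, as a table of the series and as a table per library. Counts hold uniquely mapped reads of the reverse strand that overlap 1 gene. Reads not assigned to a gene (37.7% to 41.1% of a library, of which multimapping reads were 8.68% to 9.71% and reads on no feature 25.1% to 27.2% of the library) entered neither library sizes nor tests.

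From the counts, edgeR 4.0.16 in R 4.3.3 was used. Genes were kept where 3 or more libraries had over 1 CPM, libraries were scaled by TMM, and BNC2 siRNA was compared with NC siRNA by the quasi-likelihood test with Benjamini-Hochberg adjustment over 12186 genes at 0.05, in place of the likelihood ratio test of the methods. The standard error is the log2 fold change divided by the square root of F. The alternatives were DESeq2 1.42.0 (Wald test, or its size factors), library totals, TMM without the ribosomal protein genes, the likelihood ratio test, no filter, filterByExpr, counts of both strands, a replicate block and leaving out each library. Python 3.11.15 with scipy 1.17.1 and pandas 2.3.3 was used for the other steps. The test was tried on simulated data.

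Coding sequences and positions come from GENCODE release 44 mapped to GRCh37, and starts and promoters from RefSeq (GRCh38.p14), matched by symbol. Where a symbol had several promoter entries, the first was used. Genes were named by rule: all paralogs, the 8 largest rises and up to 8 largest falls called among canonical genes, the 3 highest and 3 lowest per coding length, those not tested, those nearest the threshold, and the largest rise and fall in each list. RPS3, RPS6, RPS18, RPS19, RPSA, RPL5, RPLP1 and RPLP2 were added after their values had been seen. The members and lists were chosen with earlier results of these data known. A few genes that the rule names are not reported here.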

Additional observations from a re-analysis of the deposited data

How the results depend on the processing

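Of the 80 ribosomal protein genes tested, 40 were called up and 3 down (RPL15, RPL39L and RPS27L) under each of the 15 alternatives that test them, and 0 were called in the opposite direction. The rises numbered 40 with library totals only, which shifted the median of all genes to -0.07 and gave 10 falls, and 54 of 81 genes without a filter on low counts. Falls ranged from 4 to 10 when a library was left out, and in the 40S subunit from 0 to 4. Same-numbered libraries shared no common shift (correlations of their deviations from the group means -0.208, -0.0811 and -0.130). This does not settle whether the samples were prepared in pairs. The replicate block gave 44 rises and 6 falls, 1 of them in the 40S subunit, and 2 rises in RNA polymerase I. With library totals only, RNA polymerase I had 2 rises, and the median log2 fold change became -0.0655 for initiation factors, -0.1213 for biogenesis factors, -0.3484 for RNA polymerase I, 0.0131 for chaperones and importins and -0.0714 for mTORC1 and LARP1. The median of RNA polymerase I was -0.19 with counts of both strands, and that of mTORC1 and LARP1 was 0.0337 without a filter. DESeq2's Wald test called 0 of the ribosomal proteins with other names down. Over the 6 ways of leaving out a library, the ribosomal proteins with other names had 0 to 2 falls and RNA polymerase I 2 to 4 rises, and the median ranged from -0.30 to -0.17 for RNA polymerase I, from -0.1234 to -0.0368 for biogenesis factors, from 0.0311 to 0.1164 for chaperones and importins and from -0.0442 to 0.0276 for mTORC1 and LARP1. The cause was not tested in these cases. Of 555 values of 37 single genes, 522 kept direction and side of the threshold, 29 lost the call and 4 gained it. The precision of genes at a few CPM, such as RPL17, RPL36A and RPL26L1, is limited by their counts.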
